A study of Homo sapiens with 4 samples.

Results

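The genes described here are those of the microRNA silencing and processing machinery: TNRC6A, TNRC6B and TNRC6C, the Argonautes AGO1, AGO2 and AGO3, and DROSHA, DGCR8, XPO5 and DICER1. All probes of a human bead array whose gene symbol, in its current or older form, is one of these 10 names were taken, which gave 10 of 16922 gene symbols and 17 of the 24526 probes. The genes were chosen by the measured differences between A549/146b and A549/vec on all 4 arrays, with the higher signal of TNRC6B already known, so every value of A549/146b against A549/vec for these genes is given as a description without a p-value. A549/146b and A549/vec are both made from A549, a human lung adenocarcinoma cell-line, by transduction with a pLemiR lentivirus. A549/146b carries the vector with human pre-miR-146b, placed behind the coding region of a red fluorescent reporter that a cytomegalovirus promoter drives, and A549/vec carries the vector with no insert. Both are populations selected in 2 µg/ml puromycin and not single clones, and puromycin was kept in the medium of both. RNA came from 2 cultures of each cell-line, grown side by side on 2 occasions, so that there were 4 arrays.

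A microRNA starts as a hairpin in a longer transcript. DROSHA, a nuclease, and DGCR8, its RNA-binding partner, cut the hairpin out in the nucleus, XPO5 carries it to the cytoplasm, and DICER1 trims it to a short duplex, of which an Argonaute protein keeps 1 strand. The TNRC6 proteins, also called GW182 proteins, bind the Argonaute through repeats rich in glycine and tryptophan and recruit the CCR4-NOT and PAN2-PAN3 deadenylases, which shorten the poly(A) tail of the target mRNA.

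The insert of A549/146b is shown because it is the substrate that these genes handle. In RefSeq (GRCh38.p14) the hairpin lies at chr10:102436512-102436584 on the plus strand, and the capitals mark the mature 5p and 3p arms.

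pre-miR-146b: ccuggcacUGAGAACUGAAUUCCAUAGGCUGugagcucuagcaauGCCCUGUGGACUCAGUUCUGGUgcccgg

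The mature microRNAs are shown next with the seed, bases 2 to 8, in capitals. The 5p seed is shared with miR-146a-5p, shown for comparison, and with 1 further mature microRNA of the 2370 names in the table, whereas the 3p seed is in no other name.

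miR-146b-5p: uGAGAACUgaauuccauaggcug

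miR-146b-3p: gCCCUGUGgacucaguucuggu

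miR-146a-5p: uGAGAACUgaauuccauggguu

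The levels of the mature microRNAs are not part of the array data, and no probe is annotated to MIR146B, so the arrays give no check of the overexpression itself.

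Signals are the authors' normalized intensities on a linear scale, and a probe was taken as detected where its detection p, against the negative control beads, was under 0.01. Of all probes, 10559 (43.1%) were detected on at least 1 array and entered a limma fit in which the occasion was a block. At an adjusted p under 0.05 over these probes, which is what "called" means here, 46 were higher and 52 lower in A549/146b. The share of detected probes per array was 39.2% to 42.1%. Before normalization the mean signal was 393.7 and 480.1 on A549/vec replicates 1 and 2, and 452.3 and 412.1 on A549/146b replicates 1 and 2. Signals given below as before normalization are not corrected for this. Of 5 simple epithelial markers 4 were detected on all 4 arrays, with EPCAM as the exception, and of 7 alveolar type II markers only ABCA3 was, while none of 5 fibroblast and none of 5 endothelial markers was detected on any. Of 5 leukocyte markers 4 had a probe, and CD14 and CD68 were detected on all 4 arrays. Of the arrays, A549/vec replicate 1 was the least like the rest. Pearson's r across tested probes was 0.985 to 0.991 between it and the others, against 0.992 to 0.995 among the others (probes are not independent replicates). Precision is limited by having 2 arrays per cell-line: with 1 residual degree of freedom the fit borrowed nearly all of its error from the whole table (1025 prior degrees of freedom). The standard error was 0.14 on the log2 scale for each tested member probe.

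Transcripts of 7 of the 10 genes were detected on all 4 arrays by a probe each: TNRC6A, TNRC6B, AGO1, AGO2, AGO3, DGCR8 and XPO5. The 3 genes with no detected probe were TNRC6C, DROSHA and DICER1. Of the 17 probes, 7 were detected on all 4 arrays, 1 on a single array and 9 on none, so that 8 probes of 7 genes entered the fit and 9 did not. The 9 probes had normalized signals of 58.7 to 95.4. This array thus gives no measurement of the nuclease that cuts the primary transcript or of Dicer, and no such probe says that its transcript is absent.

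**Figure D1:**
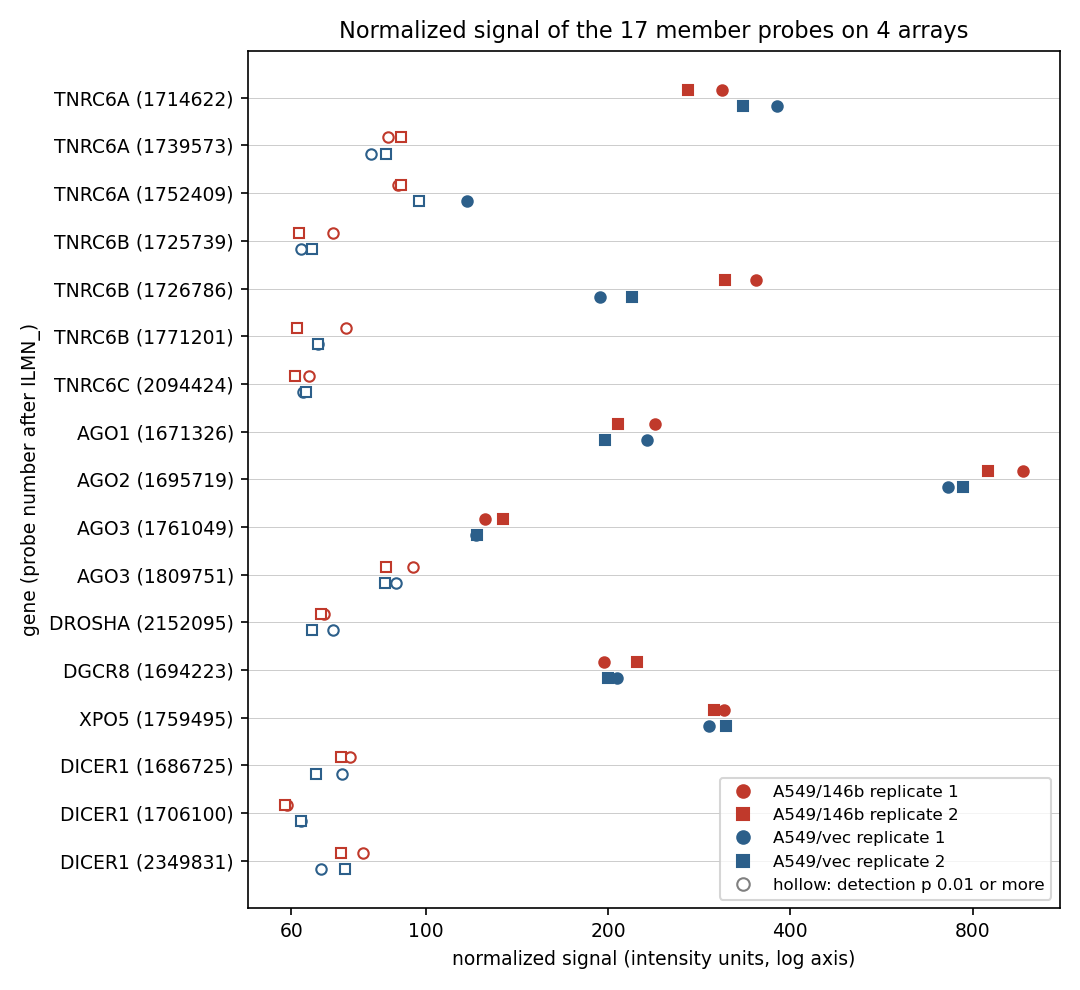
Normalized signal (intensity units, log axis) of each of the 17 probes on the 4 arrays, with A549/146b in red above A549/vec in blue, circles for replicate 1 and squares for replicate 2, and hollow symbols where the detection p was 0.01 or more. The TNRC6B probe ILMN_1726786 has both A549/146b values, 351 and 312, right of both A549/vec values, 194 and 219.5, and the 9 undetected probes lie between 58.7 and 95.4.

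TNRC6B was the 1 member called, and it was higher in A549/146b. Its probe ILMN_1726786, annotated to the transcript NM_001024843, had a normalized signal of 351 and 312 in A549/146b replicates 1 and 2, against 194 and 219.5 in A549/vec replicates 1 and 2. Both A549/146b values lay above both A549/vec values. Before normalization the signals were 347 and 274.8 in A549/146b and 163.5 and 227.9 in A549/vec, again without overlap. The means were 331 ± 27.3 and 207 ± 18.3 (SD, n = 2 each), which is 1.60-fold by the mean log2 difference. By occasion the log2 differences were 0.86 and 0.51, with a mean of 0.68, while the duplicates of a cell-line differed by 0.17 in A549/146b and by 0.18 in A549/vec on the same scale. Both differences between the cell-lines were larger than either difference within one. TNRC6B was chosen on these same values, so this describes them and is no separate support. Over all tested probes 0.928% were called, 0.436% higher and 0.492% lower, but nothing can be read from 1 call among 8 probes, since TNRC6B was the reason for the choice. Without A549/vec replicate 1 the mean difference was 0.59 and the probe was still called by limma, in a fit without the block. Without A549/146b replicate 1 it was 0.60 and the probe was not called, nor was it called with median scaling, with no filter on dim probes or with a detection p under 0.05 in place of 0.01. In RNA of whole cultures, more cells with the transcript and more of it per cell cannot be told apart.

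The other TNRC6B probes did not measure the transcript. ILMN_1771201, annotated to the same transcript as the called probe, had 74.0 and 61.3 in A549/146b and 66.4 and 66.6 in A549/vec, with detection p-values of 0.055 to 0.838. ILMN_1725739, annotated to NM_015088, had 70.5 and 61.8 in A549/146b and 62.3 and 65.0 in A549/vec, with detection p-values of 0.100 to 0.793. Their values overlapped between the cell-lines. The higher TNRC6B signal therefore rests on 1 of 3 probes, and why the 2 probes of the same transcript differ was not tested. The protein-coding genes on either side of TNRC6B, FAM83F and ADSL, were looked at after its values were seen. ADSL, an enzyme of purine synthesis, had 4121 and 4301 in A549/146b and 3838 and 4375 in A549/vec, which overlapped, and FAM83F was detected on no array.

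TNRC6A, the founding GW182 protein, had lower values in A549/146b in the probe with the stronger signal. ILMN_1714622 had 309 and 271 in A549/146b replicates 1 and 2, against 381 and 334 in A549/vec replicates 1 and 2. Both A549/146b values lay below both A549/vec values, as they did before normalization (303.4 and 237 against 323 and 358.7). In the normalized signals 22% of all tested probes had this order. The log2 difference was -0.30 on each occasion, and the duplicates differed by 0.19 in either cell-line, so that on this scale the difference between the cell-lines was larger than that within them. It was not called, and without A549/vec replicate 1 it was -0.21. A second TNRC6A probe, ILMN_1752409, was detected only in A549/vec replicate 1 and entered the fit through that array alone. It had 89.9 and 91.0 in A549/146b and 117 and 97.5 in A549/vec. Neither a fold nor a direction is given for it, since it lay below the lowest detected signal of the array on 3 arrays. The third probe, ILMN_1739573, had a detection p of 0.0227 to 0.0356 on all 4 arrays and was not tested. It had 86.6 and 91.1 in A549/146b and 81.2 and 85.9 in A549/vec, and at this signal it gives no direction either, so the TNRC6A values rest on 1 of its 3 probes, all annotated to 1 transcript.

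Within an array, the balance of the TNRC6B and TNRC6A probes differed between the cell-lines, a quantity chosen after their values were seen. The log2 signal of TNRC6B minus that of TNRC6A, both from the probe of the highest mean, was 0.18 and 0.20 in A549/146b replicates 1 and 2 and -0.97 and -0.61 in A549/vec replicates 1 and 2. The size of this value means nothing by itself, as probes differ in efficiency, but its difference between cell-lines is free of any scaling that moves a whole array by 1 factor. That difference was 1.16 and 0.81 on the occasions. These probes have the highest and the lowest mean difference of the 8 tested, so a gap between them follows from the choice. It is no separate result and does not tell which probe changed. TNRC6C, the third paralog, had 64.3 and 61.0 in A549/146b and 62.8 and 63.5 in A549/vec from its 1 probe, with detection p-values of 0.550 to 0.864.

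**Figure D2:**
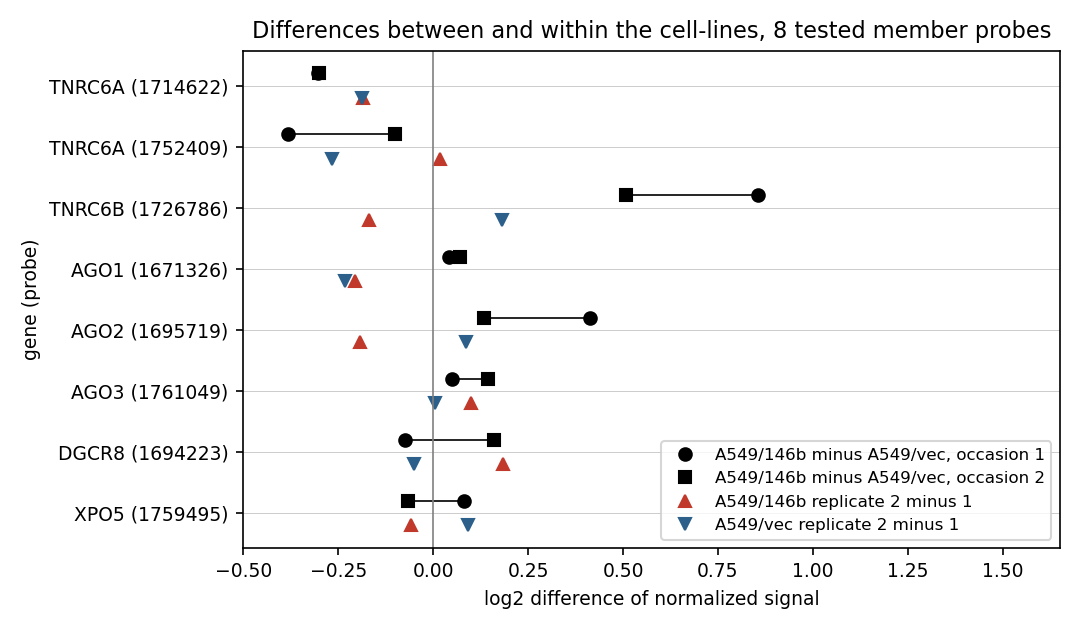
Log2 differences of the normalized signal for the 8 tested probes, with A549/146b minus A549/vec in black (circle for occasion 1, square for occasion 2, joined by a line) and replicate 2 minus replicate 1 as triangles, red for A549/146b and blue for A549/vec. TNRC6B lies at 0.86 and 0.51, away from its duplicate differences of -0.17 and 0.18, and the circle and square of TNRC6A (probe ILMN_1714622) coincide at -0.30.

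Among the Argonautes, which hold the microRNA strand, none was called. AGO2, the Argonaute known for cutting fully paired targets, had 968 and 848 in A549/146b replicates 1 and 2, against 727 and 772 in A549/vec replicates 1 and 2. The normalized values did not overlap, but those before normalization, which keep the unequal brightness of the arrays, did (982.9 and 774.5 in A549/146b, 614 and 849 in A549/vec). By occasion the log2 differences were 0.41 and 0.13, and the A549/146b duplicates differed by 0.19, more than the cell-lines did on occasion 2. Without A549/vec replicate 1 the mean difference was 0.23. AGO1 had 239 and 207.5 in A549/146b and 232 and 198 in A549/vec. In both cell-lines replicate 1 was the higher, so the values overlapped, with log2 differences of 0.04 and 0.07 between the cell-lines against 0.20 and 0.23 between the duplicates of A549/146b and of A549/vec. AGO3 had 125 and 134 in A549/146b and 121 and 122 in A549/vec from the probe annotated to NM_177422. These do not overlap, but the signals before normalization do (112 and 110.9 in A549/146b, 99.5 and 115.4 in A549/vec). The log2 differences were 0.05 and 0.14, and the A549/146b duplicates differed by 0.10. The other AGO3 probe, annotated to NM_024852, was detected on no array, with 95.4 and 86.1 in A549/146b and 89.2 and 85.9 in A549/vec. Among protein-coding genes of the RefSeq annotation AGO1 lies between AGO3 and AGO4. The AGO4 probe was detected on no array, with 70.0 and 70.8 in A549/146b and 76.3 and 70.3 in A549/vec.

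Of the genes that make and export the hairpin, DGCR8 and XPO5 were measured, and neither differed between the cell-lines by more than the more distant of its pairs of duplicates. DGCR8, the RNA-binding subunit of the Microprocessor, had 197 and 224 in A549/146b and 207 and 200.2 in A549/vec. The values overlapped, and the log2 differences by occasion were -0.07 and 0.16. XPO5, the exportin that carries hairpins out of the nucleus, had 311 and 299 in A549/146b and 294 and 313 in A549/vec, with log2 differences of 0.08 and -0.07. Its mean difference, 0.01, was the smallest of the 8 tested probes. DROSHA had 68.0 and 67.2 in A549/146b and 70.3 and 64.9 in A549/vec, with detection p-values of 0.113 to 0.492. Of the 3 DICER1 probes, ILMN_2349831 came nearest to detection, with 78.9 and 72.5 in A549/146b and 67.2 and 73.8 in A549/vec and a lowest detection p of 0.0356. ILMN_1686725 had 75.1 and 72.4 in A549/146b and 72.7 and 66.0 in A549/vec, and ILMN_1706100 had 59.1 and 58.7 in A549/146b and 62.4 and 62.2 in A549/vec, with detection p-values of 0.744 to 0.977. At this signal, changes of DROSHA and DICER1 were not measurable.

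Over the 8 tested probes, the values of the cell-lines did not overlap for 5, of which 3 were higher in A549/146b (TNRC6B, AGO2 and AGO3) and 2 lower (both of TNRC6A). TNRC6A counts with 2 probes here, but no direction is read from ILMN_1752409, which was detected on 1 array. Of all 10559 tested probes 44% had values that did not overlap, 22% in each direction. The difference had the same direction on both occasions for 6 of the 8, against 58.4% of all tested probes, with DGCR8 and XPO5 as the exceptions. The median log2 difference was 0.05 for the 8 probes and 0.00 for all tested probes. The difference was larger in size on occasion 1 for 5 of the 8, against 69.9% of all tested probes. The median size of the difference was 0.19 on occasion 1 and 0.14 on occasion 2 for the 8 probes, against 0.19 and 0.10 for all tested probes. In the A549/146b duplicates the median size was 0.18 for the 8 probes and 0.11 for all tested probes, and in the A549/vec duplicates it was 0.14 for both. Of these probes, 1 passed the detection filter only through A549/vec, and the genes were chosen on these arrays, so nothing is read from these counts.

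**Figure D3:**
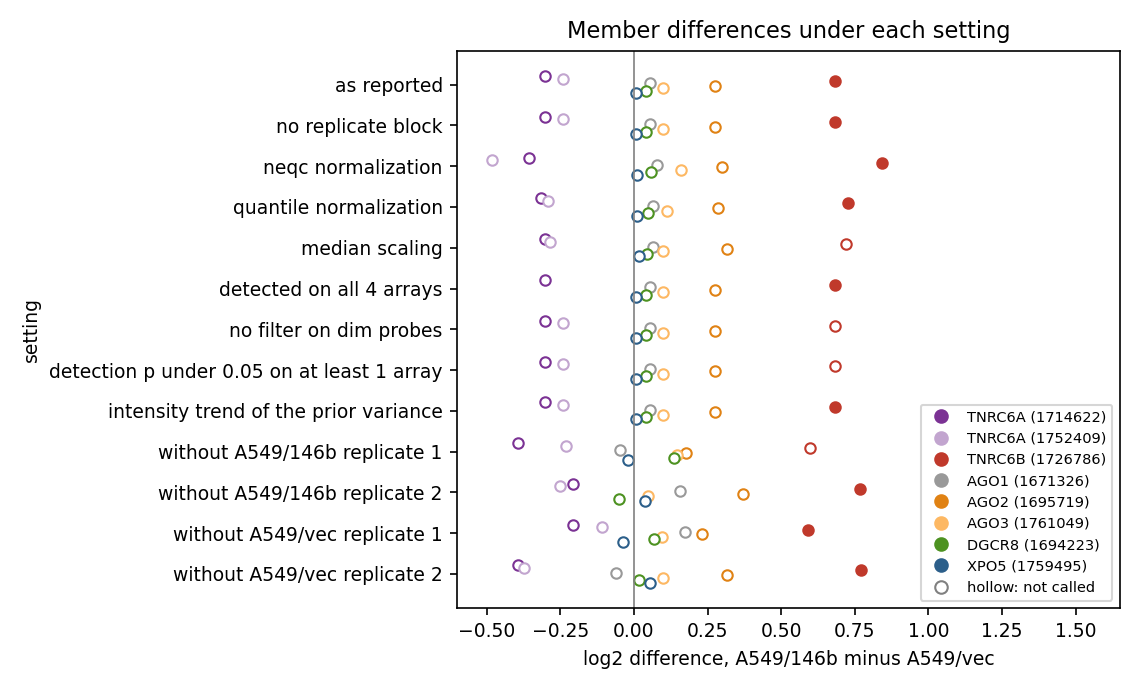
Mean log2 difference of A549/146b minus A549/vec for each tested probe (colours) under the setting reported here (top row) and 12 alternatives (other rows), with filled symbols where limma called the probe. TNRC6B runs from 0.59 to 0.84 and is filled in the top row and in 8 of the 12 alternatives, and no other probe is filled in any.

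Genes that work beside these in the pathway were taken as 6 lists of 125 genes, of which 117 had a probe and 97 an expressed one. In A549/146b 1 of the 97 was called (1.03%, against 0.928% of all tested probes), and it was lower: ZFP36, a protein that recruits deadenylases to AU-rich mRNAs. Its call by limma was known when the lists were written. At an unadjusted p under 0.05 there were 14 (14.4%, against 12.2% of all tested probes), and 49 of the 97 had a difference above 0. Since the 1 call was known beforehand, no rate of calls is read from these lists.

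Of 24 genes of the CCR4-NOT and PAN complexes and of the proteins that bind them or the poly(A) tail, 20 were tested and none was called. The median log2 difference was 0.03, 14 of the 20 were above 0, against 49.5% of all tested probes, and 4 had an unadjusted p under 0.05, against 12.2% of all tested probes. Of the nucleases, the probes of the highest mean were near 0, with 0.02 for PAN2, -0.06 for CNOT7, -0.01 for CNOT8 and 0.08 for PARN. A second CNOT7 probe had 0.20, CNOT6 had no probe and CNOT6L was not tested. The 3 genes of smallest p were an adaptor and a pair of binding proteins, given here with the range of the mean difference when each array in turn was left out. PAN3, the adaptor that joins the PAN2 nuclease to its targets, had 388 and 350 in A549/146b, against 247 and 276 in A549/vec. The values did not overlap, with log2 differences of 0.65 and 0.34 (mean 0.50, range 0.42 to 0.58, adjusted p = 0.0531 from limma). BTG1, which binds the CCR4-NOT nucleases, had 2254 and 2236 in A549/146b and 1606 and 1657 in A549/vec, a mean log2 difference of 0.46 with 0.49 and 0.43 on the occasions (range 0.44 to 0.48, adjusted p = 0.0827 from limma). PABPC1, the cytoplasmic poly(A)-binding protein, had 728 and 543 in A549/146b and 414 and 517 in A549/vec, a mean of 0.44 that came mostly from occasion 1, with 0.82 against 0.07 (adjusted p = 0.107 from limma). It was 0.23 without A549/146b replicate 1, 0.28 when A549/vec replicate 1 was left out and 0.60 when A549/vec replicate 2 was. Of the 12 alternatives, these 3 genes were called in 1, that without A549/vec replicate 2, where 868 probes were called.

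For the remaining lists the same ranges are given, with single values for ZFP36. The difference was smallest in size without A549/vec replicate 1 for XRN1, DCP2, HSP90AB1, PTGES3, WTIP, ZSWIM8, PUM2 and ZFP36. The same held for PAN3 and BTG1 above. Of 28 genes of decapping, decay and P-bodies 23 were tested and none was called, with a median of -0.01. XRN1, the exonuclease that degrades decapped mRNA, had 198 and 166 in A549/146b and 125 and 152 in A549/vec (mean log2 difference 0.39, range 0.25 to 0.54, adjusted p = 0.177 from limma). The decapping enzyme DCP2 had 0.25 (range 0.10 to 0.41, adjusted p = 0.472 from limma). The Sm-like protein LSM7 had -0.26, from -0.48 and -0.03 by occasion (range -0.50 to -0.01, adjusted p = 0.468 from limma). The value of -0.01 was that without A549/146b replicate 1. Of 21 partners of Dicer and of Argonaute loading 17 were tested, again with no call and a median of -0.01. HSP90AB1, a subunit of the chaperone that opens Argonautes for loading, had 4857 and 4887 in A549/146b, against 6401 and 5979 in A549/vec (mean log2 difference -0.34, range -0.39 to -0.30, adjusted p = 0.280 from limma). The co-chaperone PTGES3 had 0.30, with 0.61 on occasion 1 and 0.00 on occasion 2 (range 0.09 to 0.52, adjusted p = 0.359 from limma). The LIM protein WTIP had 0.28 (range 0.17 to 0.40, adjusted p = 0.403 from limma), where a second WTIP probe had -0.20.

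Among 18 Microprocessor partners and export factors 13 were tested and none was called, with a range of -0.20 to 0.18. The extremes were ILF2, an RNA-binding nuclear factor, at -0.20 (range -0.34 to -0.06, adjusted p = 0.611) and ADAR, which edits double-stranded RNA, at 0.18 (range 0.05 to 0.32, adjusted p = 0.653, both from limma), where a second ADAR probe had -0.31. NCBP2, of the nuclear cap-binding complex, had -0.19 (range -0.27 to -0.11, adjusted p = 0.636 from limma). Of 14 genes of small RNA tailing and turnover 9 were tested and none was called. PNPT1, an exonuclease, had -0.30 (range -0.36 to -0.23, adjusted p = 0.371) and ZSWIM8, part of a ligase that degrades Argonautes, -0.21 (range -0.25 to -0.17, adjusted p = 0.581, both from limma). The poly(A) polymerase TENT2 had 0.20, from 0.48 and -0.08 by occasion (range -0.01 to 0.41, adjusted p = 0.604 from limma). Its sign turned without A549/146b replicate 1, at -0.01. Of 20 proteins that bind target mRNAs 15 were tested, with a median of 0.16 against 0.00 for all tested probes, 9 of 15 above 0, against 49.5% of all tested probes, and 5 at an unadjusted p under 0.05, against 12.2% of all tested probes. Here ZFP36 fell to 636 and 578 in A549/146b, against 1051 and 776 in A549/vec (mean log2 difference -0.58, adjusted p = 0.0171 from limma), and it was not called without A549/vec replicate 1 (-0.36), A549/146b replicate 1 (-0.64) or A549/146b replicate 2 (-0.51), nor without the block. PUM2, which binds Pumilio elements, had 0.34 (range 0.26 to 0.43, adjusted p = 0.281) and G3BP2, of stress granules, also 0.34 (range 0.19 to 0.48, adjusted p = 0.289, both from limma).

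**Figure D4:**
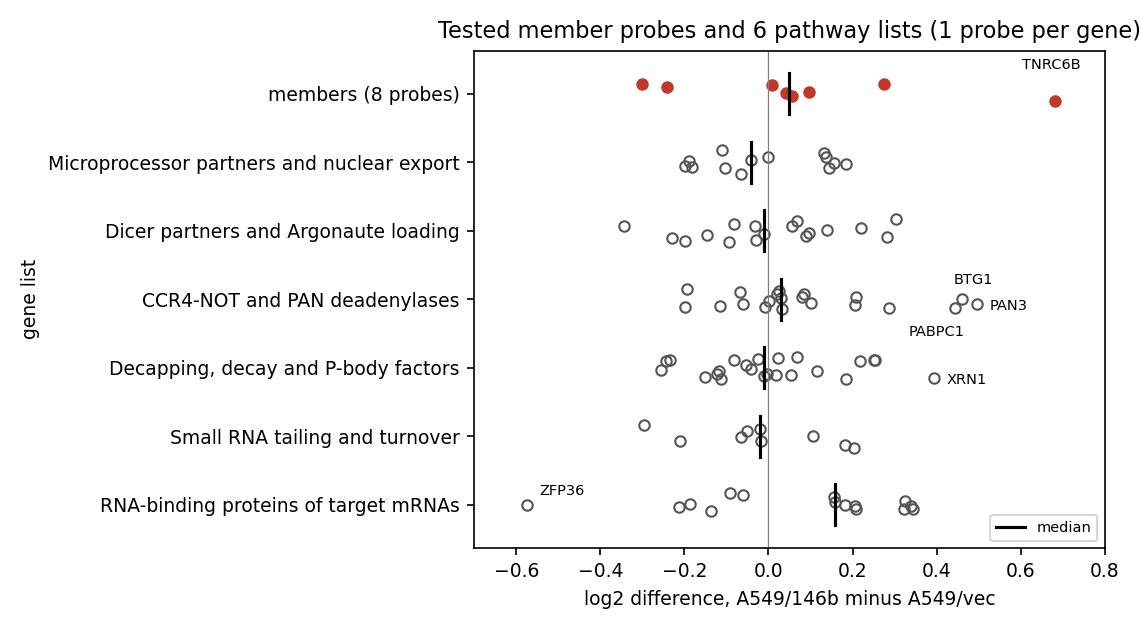
Mean log2 difference of A549/146b minus A549/vec for the 8 tested member probes (red, top row) and for the expressed genes of 6 lists of the pathway, with 1 circle per gene and a black bar at each median. TNRC6B at 0.68 and ZFP36 at -0.58 are the called ones, and PAN3 at 0.50 lies nearest to TNRC6B.

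The profiles most like that of TNRC6B over the 4 arrays were found by the root mean square distance of the log2 signals after each probe was centred on its own mean. They were those of ABCA1, a cholesterol exporter (distance 0.056), SLC30A7, a zinc transporter (0.059), GOLT1B, a Golgi transport protein (0.064), TMEM245, a membrane protein (0.070), and the phosphatase subunit PPP1CB (0.071). In these 5, as in TNRC6B, both A549/146b values lay above both A549/vec values and A549/vec replicate 1 was the lowest array. They were chosen for nearness to TNRC6B on these same arrays, so this shared order follows from the choice and is no separate result. ABCA1, the nearest, had 846 and 680.2 in A549/146b and 442 and 486 in A549/vec, with log2 differences of 0.94 and 0.49, close to the 0.86 and 0.51 of TNRC6B. With 4 arrays such a likeness describes these cultures only.

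**Figure D5:**
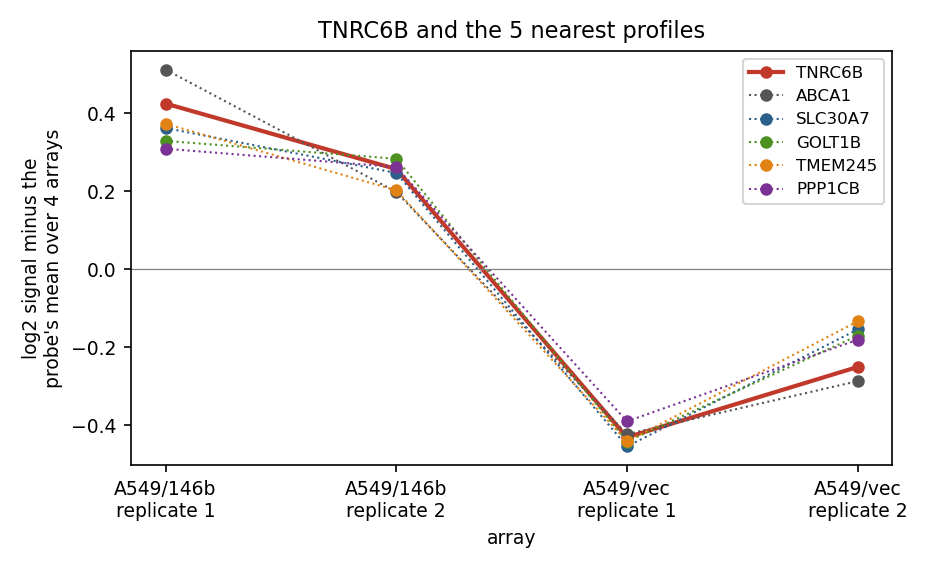
Log2 normalized signal minus the probe's own mean over 4 arrays, for TNRC6B (red, solid) and the 5 genes with the nearest profiles (dotted), by array. All 6 lie above 0 on both A549/146b arrays and below 0 on both A549/vec arrays, with A549/vec replicate 1 the lowest, where TNRC6B is at -0.43. The 5 were chosen for nearness to TNRC6B, so the shared order follows from the choice.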

How the data were processed

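The files hold 2 sets of intensity values that the authors deposited, those from GenomeStudio that were not normalized and those background-corrected, variance-stabilized and spline-normalized in lumi 1.14 under R 2.11.1. They also hold the detection p-value that GenomeStudio gave each signal, as the authors deposited it. All 4 arrays, 2 per cell-line, were used. The normalized values are on a linear scale, so log2 was taken before limma 3.58.1 in R 4.3.3 was fitted to all probes detected (p under 0.01) on 1 array or more, two-sided, with Benjamini-Hochberg adjustment. The paper's methods name a paired limma comparison of cultures grown concurrently, and the labels give each cell-line a culture 1 and a culture 2, so this number was the block. Same-numbered deviations had r = -0.05 across tested probes, which shows no pairing by itself. With 2 arrays against 2, a permutation test cannot go below a two-sided p of 0.333.

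Symbols come from the array's annotation (21834 probes with 1 symbol, 2692 with none), and 8 genes of the lists matched no probe and were not analysed here. A listed gene is represented by its tested probe of the highest mean. The text names all member probes, the 3 genes of smallest p per list, all called genes, and the 5 profiles nearest to TNRC6B. The members and lists were chosen with earlier results of these data known. Alternatives were no block, neqc, quantile and median scaling, other filters, a variance trend, and each array left out. The fit was tested on simulated data with independent noise of equal size on every probe and array. The real log2 differences had an SD of 0.29 on occasion 1 and 0.16 on occasion 2. That test therefore does not check the fit on these arrays. MicroRNA sequences are from RefSeq (GRCh38.p14).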

Additional observations from a re-analysis of the deposited data

How the results depend on the processing

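TNRC6B kept its direction in all 12 alternatives, with mean log2 differences of 0.59 to 0.84. It was called in 8 of them. The number of member probes called was 0 in the other 4: with median scaling, with no filter on dim probes, with a detection p under 0.05, and without A549/146b replicate 1, so over the arrays left out it was 0 to 1. Without the replicate block TNRC6B was still called (1 member probe, mean difference 0.68). The stronger TNRC6A probe kept its sign in all 12 (-0.39 to -0.21), AGO2 did (0.18 to 0.37), and AGO3 did (0.05 to 0.16). For TNRC6B and these probes the sign was fixed in advance in most alternatives. A change of block, filter or variance model leaves the mean difference as it was. Leaving out 1 array cannot turn the sign where the values do not overlap. Only neqc, quantile and median scaling could have turned it. AGO1 (-0.06 to 0.17), DGCR8 (-0.05 to 0.13) and XPO5 (-0.04 to 0.05) changed sign when 1 array was left out. No member other than TNRC6B was called in any alternative.

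Over all probes, higher and lower calls were 46 and 52 in the fit reported here, which are not the paper's own counts. They were 40 and 44 with quantile scaling, and 34 and 38 with a variance trend. They were 7 and 5 without the block, 10 and 11 with neqc, and 4 and 3 with median scaling. Over probes detected on all 4 arrays they were 16 and 17, and with a detection p under 0.05 they were 1 and 1. With no filter they were 0 and 0, where limma gave 1984 probes an unadjusted p under 0.05. With 1 array left out, in fits without the block and with the lone array assumed to vary like the others, they ran from 6 to 438 higher and from 6 to 430 lower. In total 12 were called without A549/146b replicate 1, 21 without A549/146b replicate 2, and of the A549/vec arrays, leaving out replicate 1 gave 49 and leaving out replicate 2 gave 868. In the last of these the lists of Dicer partners, of the CCR4-NOT and PAN complexes and of decay factors had 1, 3 and 1 calls against 0 as reported (0 to 1, 0 to 3 and 0 to 1 over the arrays left out). The list of proteins that bind target mRNAs, with 1 as reported (ZFP36), had 0 calls without the block, with neqc, with median scaling, with no filter and with a detection p under 0.05, and 0 to 3 over the arrays left out. The cause of these shifts was not tested. Detection limits the group further: TNRC6C, DROSHA and DICER1 had no probe above background at a p under 0.01.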
